A study of Monodelphis domestica and Mus musculus with 2 samples.

Results

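The genes Rprm, Hs3st4, Vxn, Ccn2, Cplx3 and Moxd1, which serve as markers of cortical layer 6 or of the subplate were measured in the primary visual cortex (V1) of a gray short-tailed opossum and a mouse. These 6 genes were chosen by name. In the opossum, 5 of the 6 were found among 30613 listed genes, and no listed gene carried the symbol HS3ST4. In the mouse, 5 of the 6 were found by symbol among 61317 genes, where Vxn is listed as 3110035E14Rik, and Ccn2 was found as Ctgf, its older symbol, through its gene identifier.

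The samples were 1 adult male Monodelphis domestica of about 6 months and 1 adult male wild-type C57BL/6J mouse of about postnatal day 40. Several coronal sections of each brain were embedded together in a block, from which a slice of 10 µm was placed on the chip. Stereo-seq captures polyadenylated RNA on a chip of barcoded spots, and each unique molecular identifier (UMI), 1 captured RNA molecule, was assigned to a cell segmented on an image of the section. V1 was outlined by the authors as 3 regions in the opossum and 4 in the mouse, each spanning layers 2/3 through 6. They labeled cells by likeness to single-nucleus atlases of the same species. Of 80369 opossum cells, 4806 lay in the V1 regions and passed the authors' filter, with 6933475 UMIs and a median of 1326 per cell. Of 120239 mouse cells, 9127 did, with 12522687 UMIs and a median of 1305.

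With 1 animal per species there was no test, neither between species nor between cell types. Levels are UMIs of a gene per 10000 UMIs, and the ranges in parentheses are exact Poisson intervals at 95%, which cover counting error only. The opossum regions came from 2 coronal sections and the mouse regions from 3, and their spread describes 1 animal. Species cannot be told apart from age, housing, annotation or RNA quality, whose integrity number was 7.1 in the opossum block and above 9 in the mouse block. Opossum region 3 lay apart from the adjacent regions 1 and 2 on the chip and held fewer UMIs per cell, with a median of 1048 UMIs per cell against 1358 and 1503. A gene's level also depends on how much of its 3′ end is annotated, so levels of different genes, or of a gene in the 2 species, were not ranked against each other. The 2 libraries shared 0 barcodes.

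Layer 6 is the deepest layer of the cortex. Its corticothalamic neurons (L6CT) send feedback to the thalamus, and its intratelencephalic neurons (L6IT) project within the cortex. Layer 6b, a thin sheet between layer 6 and the white matter, holds neurons that remain from the subplate, a transient zone of early-born cells that guides thalamic axons during development. Rprm encodes reprimo, a p53 target linked to cell cycle arrest. Hs3st4 encodes a heparan sulfate 3-O-sulfotransferase, and Vxn encodes vexin, a protein linked to neuronal differentiation. Ccn2 encodes a secreted matricellular growth factor, Cplx3 encodes complexin 3, which binds the SNARE complex at synapses, and Moxd1 encodes a monooxygenase related to dopamine beta-hydroxylase.

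In the mouse assembly GRCm39, Rprm is a protein-coding gene on the minus strand of chromosome 2 from 53974105 to 53975564, and Cplx3 lies on the minus strand of chromosome 9 from 57507275 to 57513575. Hs3st4 (chromosome 7, 123582092 to 123998212), Vxn (chromosome 1, 9671354 to 9697368), Ccn2 (chromosome 10, 24471333 to 24474900) and Moxd1 (chromosome 10, 24099308 to 24178688) lie on the plus strand. Genes annotated on the opposite strand overlap Vxn (2610203C22Rik, 112 UMIs in V1), Ccn2 (Gm15270, 51 UMIs) and Hs3st4 (Gm27040, 55 UMIs). Whether the counting used strand is not given in the sources used here, so reads of these pairs may not have been told apart. Opossum genes are given by symbol only.

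The labels behind the comparisons were described first. They were given by expression, so marker levels in the labeled cells describe the labels and do not test them. Of 3 genes fixed as markers of L6CT, Foxp2, Tle4 and Syt6 were 11.8, 3.01 and 19.1 times as high in opossum L6CT cells (568 cells) as in the other glutamatergic cells, and 14.1, 3.47 and 9.05 times as high in mouse L6CT cells (1242 cells). The mouse label L6b held 26 cells, with 12 of them in the deepest bin of V1. Their depths had a median of 551 µm and quartiles of 357 and 751 µm, so the label was not confined to the bottom of V1. Among 3 markers of layer 6b in these cells, Nxph4 was at 0 UMIs, with only 12 over all V1 cells, whereas Ccn2 and Cplx3 are described below. No opossum cell carried the label L6b. Since labels were given by expression, the level of a gene by subclass is a description of the labeled cells. Depth was not used to label cells, although L6CT and the upper-layer labels IT_A and L2/3 set which end of a region counts as the top. Each region was cut into 10 depth bins of equal height, given here in µm of the tallest region. Deep V1 is the lower 5 bins and shallow V1 the upper 5. Median UMIs per cell were 1516 in deep and 1163 in shallow V1 of the opossum, and 1506 and 1175 in the mouse.

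In the mouse, the genes lay deep with a single exception. Of the 6 genes, 5 were at 2-fold or more in deep over shallow V1, against 1.2% of 13619 genes with at least 50 UMIs. The same 5 were at 2-fold or more in L6CT over other glutamatergic cells, against 1.55% of genes. Moxd1 met neither limit. In the opossum, 3 of the 5 genes listed (RPRM, VXN and CPLX3) were at 2-fold or more in deep V1, against 1.66% of 10751 genes, and 1 of the 5 (VXN) in L6CT, against 3.35% of genes. Opossum MOXD1 was lower in deep V1, at 0.442 times its level in shallow V1 (0.290 to 0.665).

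The genes differed in how many UMIs lie behind their values. Over all V1 cells of the mouse, Vxn had 5730 UMIs, Hs3st4 2564, Rprm 2477, Ccn2 601, Cplx3 223 and Moxd1 69. In the opossum, RPRM had 520, VXN 460, CCN2 145, MOXD1 109 and CPLX3 92. The last 3 opossum genes and mouse Moxd1 thus allowed coarse statements only.

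As a single measure of position, the mean relative depth of the UMIs (0 at the top, 1 at the bottom, each cell scaled to the same total) was 0.724 for mouse Rprm, 0.718 for Ccn2, 0.650 for Hs3st4, 0.636 for Vxn, 0.627 for Cplx3 and 0.514 for Moxd1, against 0.521 for all UMIs. In the opossum it was 0.719 for VXN, 0.627 for CPLX3, 0.551 for RPRM, 0.471 for CCN2 and 0.417 for MOXD1, against 0.526. Rprm and Ccn2 did not differ beyond the spread over mouse regions, 0.708 to 0.756 for Rprm and 0.680 to 0.757 for Ccn2. The opossum regions spanned 0.401 to 0.603 for RPRM, the lowest being region 3, and the mean without region 3 was 0.588.

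**Figure D1:**
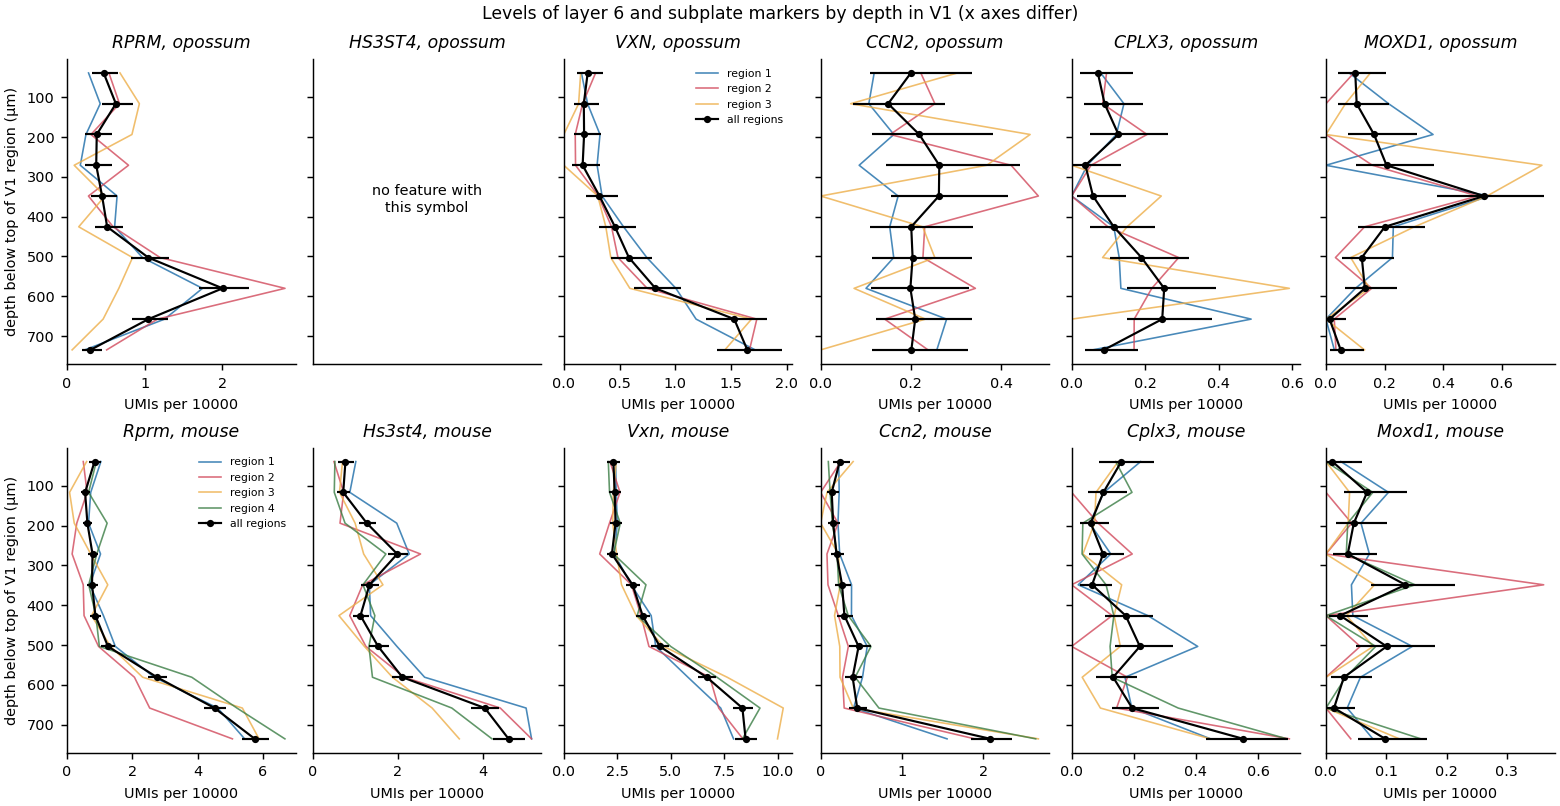
Levels in UMIs per 10000 (horizontal axes, which differ between panels) in 10 equal bins of depth below the top of V1, with the pooled level and its 95% Poisson interval in black and each region in color. Mouse Rprm, Hs3st4 and Vxn climbed through the lowest bins, mouse Ccn2 and Cplx3 were highest in the last bin, opossum RPRM peaked at 541 to 619 µm and opossum MOXD1 at 309 to 387 µm.

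Rprm marked the deepest cells of mouse V1, and a shallower band in the opossum. In the mouse its level rose from 1.25 (1.05 to 1.48) at 465 to 542 µm to 5.75 (5.35 to 6.18) in the deepest bin, at 697 to 774 µm. In that bin the 4 regions were at 5.44, 5.07, 5.88 and 6.67. Above 465 µm no bin exceeded 0.869, and deep V1 was 4.44-fold higher than shallow V1 (4.00 to 4.94).

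In the opossum, RPRM rose to 2.00 (1.70 to 2.35) at 541 to 619 µm and fell back to 0.301 (0.193 to 0.449) in the deepest bin. Regions 1 and 2 were at 1.74 and 2.80 in the bin of the peak, and region 3 was at 0.666. Regions 1 and 2 thus showed the band, whereas region 3 was highest in the second bin from the top, at 0.931. Over all regions deep V1 was 2.10-fold higher (1.73 to 2.56), and 2.60-fold without region 3. In region 3 alone deep V1 was 0.682 times shallow V1, from 30 and 41 UMIs. Without region 1 or without region 2 the ratio was 1.85 or 1.74, under the 2-fold limit.

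By subclass, mouse Rprm was highest in L6CT, at 4.63 (4.33 to 4.94) from 925 UMIs, with 4.47, 3.44, 4.65 and 5.84 in the 4 regions. Oligodendrocytes (OD) followed at 3.60 (3.21 to 4.04), oligodendrocyte precursors at 2.61 and L6IT at 2.36. L2/3, L4 and L5PT cells, the subcortically projecting neurons of layer 5, were low, at 0.748, 0.830 and 0.521. The intervals of L6CT and oligodendrocytes did not overlap, whereas those of precursors and L6IT did.

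Opossum RPRM had another order. L5PT cells (115 cells) were highest, at 3.18 (2.50 to 3.99) from 75 UMIs in 36 cells, and were at 2.88 without the cell with most UMIs. L6CT cells were near the lowest, at 0.411 (0.295 to 0.557) from 41 UMIs. IT_A cells were close to them at 0.430 (0.349 to 0.522), and IT_B cells were at 0.236 (0.0766 to 0.550). The L5PT level was 3.52 in region 1, 3.48 in region 2 and 0.737 in region 3, where it rested on 2 UMIs in 22 cells. All 3 regions had L6CT below the other glutamatergic cells, at 0.299 against 0.649, 0.712 against 0.820 and 0.192 against 0.529. The 2 intervals overlapped in each region, and in region 2 they were 0.456 to 1.06 and 0.673 to 0.989. Pooled, L6CT was 0.589 times the other glutamatergic cells in the opossum (0.412 to 0.825) and 4.75 times in the mouse (4.27 to 5.28). The 2 sets of other cells were unlike. The mouse set held L6IT, at 2.36, and L6b, and the opossum set held neither. IT_D, which the paper matched to mouse L6IT, had 10 opossum cells and was left out. Of the 227 UMIs in the other opossum glutamatergic cells, 75 were in L5PT.

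**Figure D2:**
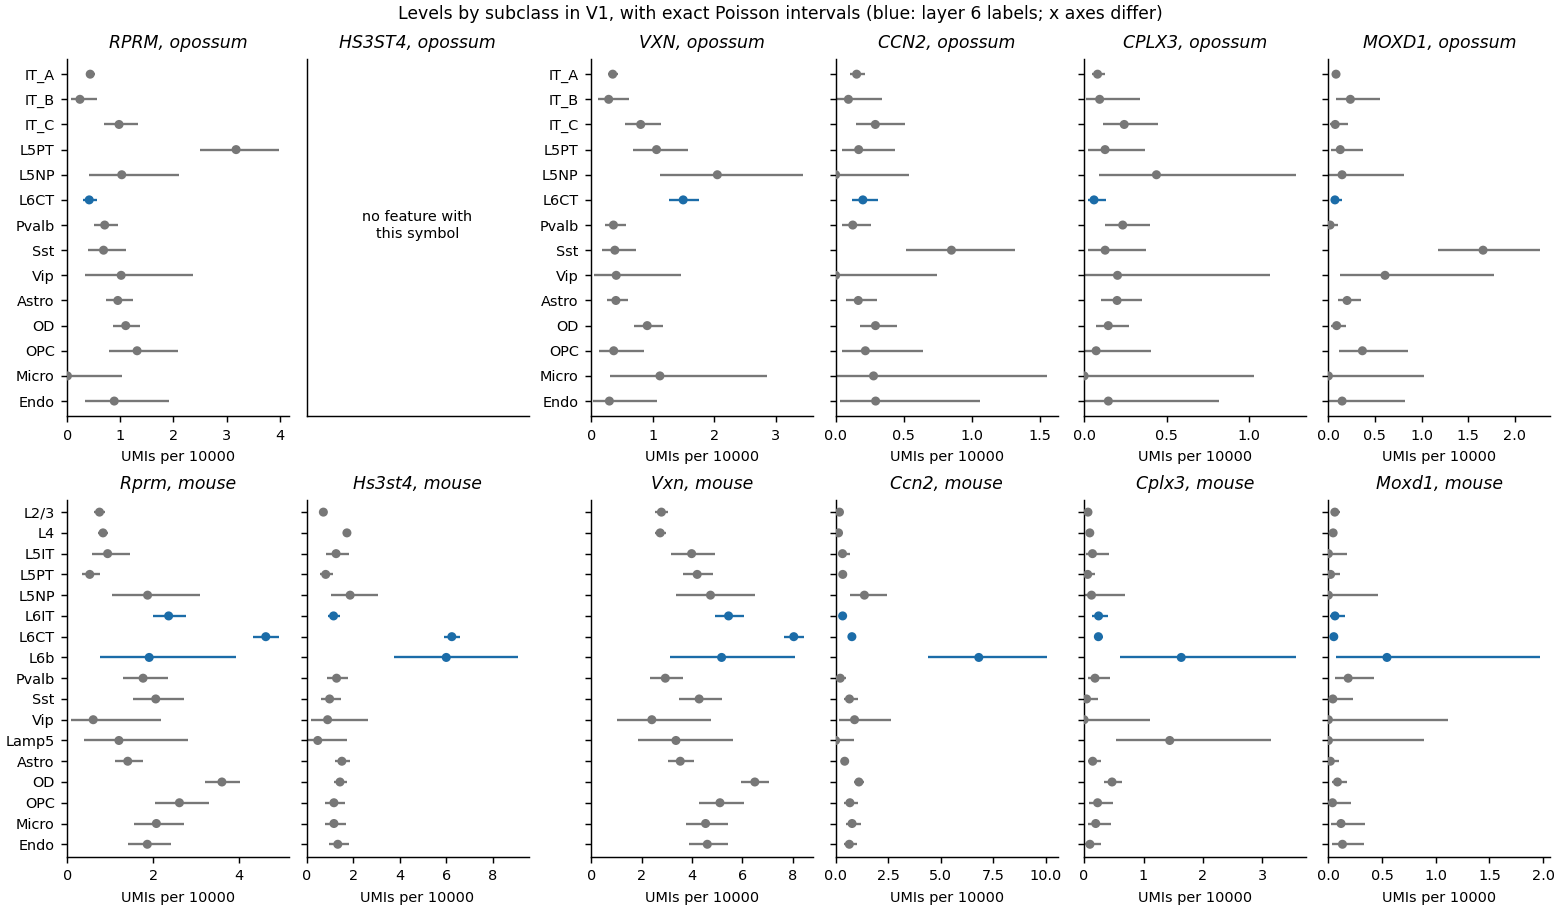
Levels by subclass in UMIs per 10000 (horizontal axes, which differ between panels), with 95% Poisson intervals and layer 6 labels in blue. Opossum RPRM was highest in L5PT, whereas mouse Rprm was highest in L6CT. Mouse Ccn2 stood out in L6b and opossum MOXD1 in Sst cells.

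The Rprm level of a cell varied with its position as well as its label. Among mouse cells of the lowest 3 bins, L6CT cells were at 5.27 (4.94 to 5.63), oligodendrocytes at 4.71 (4.16 to 5.30), GABAergic cells at 4.09 (3.16 to 5.21) and astrocytes at 3.40 (2.51 to 4.51). Oligodendrocytes at relative depths of 0.6 to 0.8 were at 1.91. RNA can spread between neighboring segmented cells on the chip, and its part in these levels was not tested. At least 1 Rprm UMI was found in 36.2% of mouse L6CT cells, 27.9% of oligodendrocytes and 11.6% of astrocytes, at median depths of 1567, 1367.5 and 1157 UMIs. After thinning every cell to 300 UMIs the shares were 11.6%, 8.73% and 3.20%.

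In the opossum the band held more than L5PT cells. At relative depths of 0.6 to 0.8, L5PT cells were at 2.90 (2.15 to 3.84), astrocytes at 2.44 (1.68 to 3.42), oligodendrocytes at 1.74 (1.23 to 2.40) and L6CT cells at 1.04 (0.499 to 1.91). In the lowest 3 bins, L6CT cells were at 0.401 (0.279 to 0.557), below oligodendrocytes at 1.16 (0.836 to 1.56) and astrocytes at 1.68 (1.12 to 2.41).

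Hs3st4, analysed in the mouse only, had 2 maxima with depth. The deepest bin was at 4.61 (4.25 to 4.99), with 5.15, 5.15, 3.45 and 4.22 in the regions. A smaller one lay at 232 to 310 µm, at 1.99 (1.76 to 2.24), above 1.27 and 1.33 in the bins on either side. Regions 1, 2 and 4 had their highest level of shallow V1 in that bin, at 2.27, 2.54 and 1.72, and region 3 had it in the next bin, at 1.65. Levels were 2.20-fold higher in deep V1 (2.02 to 2.39).

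Hs3st4 was high under 2 labels. L6CT cells were at 6.23 (5.89 to 6.59) from 1246 UMIs, and at 7.26, 7.06, 4.91 and 4.83 in the 4 regions. L6b cells were at 6.00 (3.76 to 9.08) from 22 UMIs in 6 cells, and at 2.89 without 1 cell that held 12. L5NP followed at 1.87 and L4, whose median depth was 262 µm, at 1.73 (1.57 to 1.90). All others were lower, and L2/3 cells were at 0.721. The 48.6% of Hs3st4 UMIs that fell in L6CT cells included 1 cell with 21.

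Within the lowest 3 bins, Hs3st4 differed between labels. Its level over all cells rose from 2.11 in the first of these bins to 4.61 in the last, so label and depth are not separated. In the lowest 3 bins L6CT cells were at 6.49 (6.11 to 6.88), oligodendrocytes at 1.60 (1.29 to 1.96), L6IT at 1.53 (1.17 to 1.98) and GABAergic cells at 1.18 (0.709 to 1.84). Astrocytes were at 3.12 (2.27 to 4.19). Restricted to glutamatergic cells of deep V1, L6CT was still 4.94 times the others for Hs3st4, against 2.98 times for Rprm. At least 1 Hs3st4 UMI was found in 39.6% of L6CT cells and 14.8% of oligodendrocytes, and in 15% and 3.25% after thinning.

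Vxn rose toward the bottom of V1 in both species. The mouse gene was level at 2.25 to 2.42 over the upper 4 bins and rose to 8.34 (7.88 to 8.82) and 8.49 (8.0 to 9.00) in the lowest 2. The 4 regions lay between 7.93 and 9.98 in the deepest bin and between 2.08 and 2.45 in the top one, without overlap. Opossum VXN was at 0.169 to 0.214 over the upper 4 bins and reached 1.53 (1.27 to 1.82) and 1.65 (1.38 to 1.95) in the lowest 2. Its 3 regions were at 1.72, 1.67 and 1.44 in the deepest bin and at 0.158, 0.285 and 0.151 in the top one. Deep V1 was 2.57-fold higher in the mouse (2.43 to 2.73) and 4.77-fold in the opossum (3.68 to 6.26).

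L6CT was at or near the top by subclass. In the mouse it was at 8.05 (7.66 to 8.45), followed by oligodendrocytes at 6.50 (5.96 to 7.07) and L6IT at 5.45 (4.90 to 6.05), whose intervals overlapped. In the opossum L5NP, the near-projecting cells of layer 5, was at 2.05 (1.12 to 3.44) from 14 UMIs and L6CT at 1.49 (1.26 to 1.75) from 149, intervals that overlap. L6CT was 3.06 times the other glutamatergic cells in the opossum (2.43 to 3.85), at 2.92, 2.84 and 5.72 times in the regions, and 2.46 times in the mouse (2.30 to 2.63).

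As with Rprm, cells of other labels in the lowest 3 bins carried Vxn. In the lowest 3 bins of the mouse, L6CT cells were at 8.77, oligodendrocytes at 7.68 and GABAergic cells at 6.08 (4.93 to 7.40). In the opossum, L6CT cells were at 1.65 (1.39 to 1.94), IT_A cells at 2.06 (1.34 to 3.02) and oligodendrocytes at 1.24 (0.905 to 1.65). Among glutamatergic cells of deep V1 alone, the L6CT ratio fell under 2, to 1.61 in the opossum and 1.67 in the mouse.

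**Figure D3:**
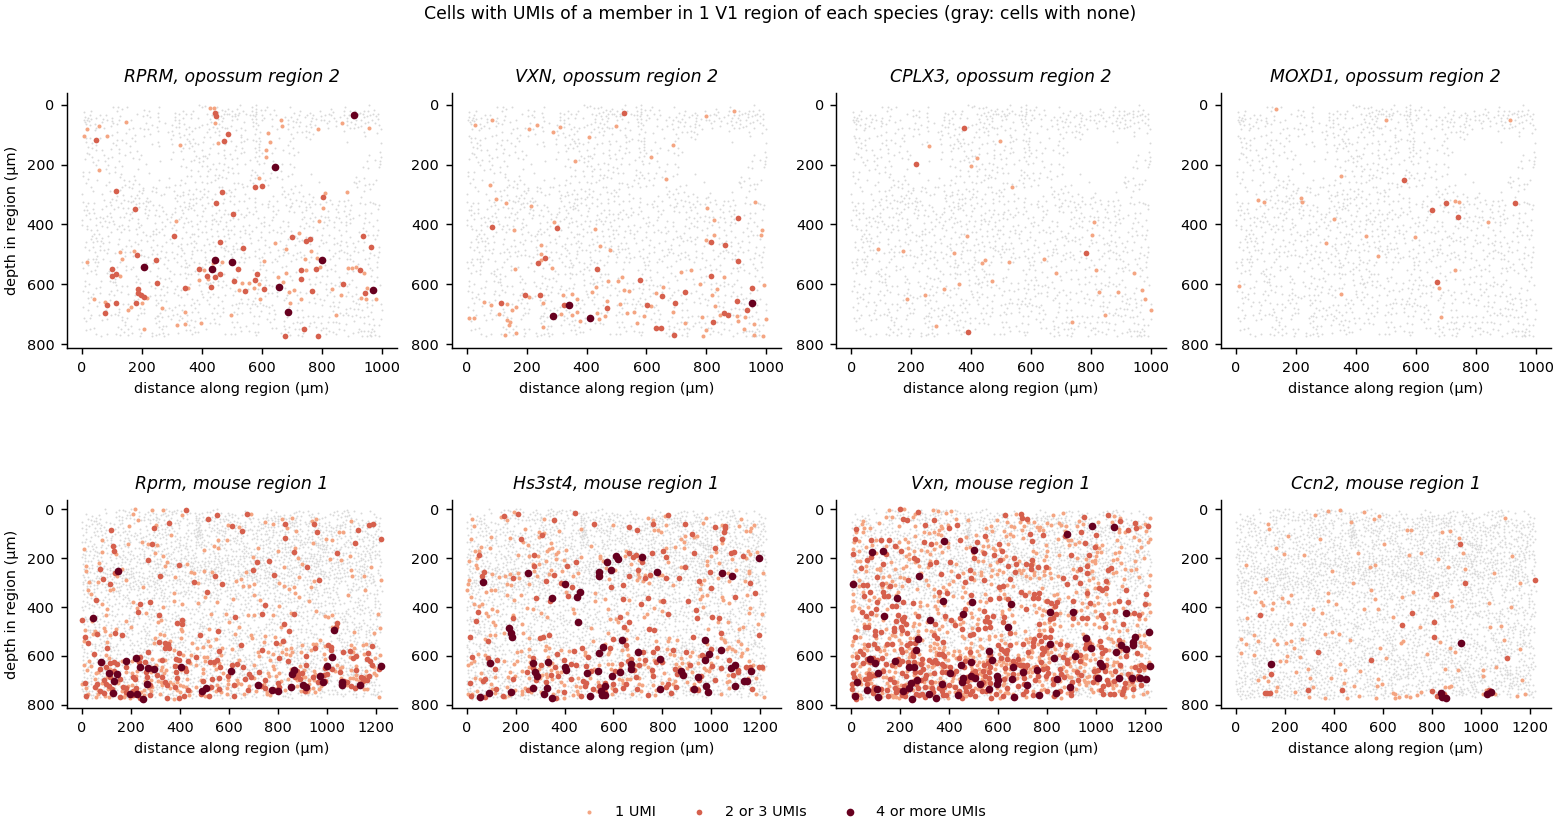
Cells of the V1 region with most UMIs in each species, placed by distance along the region and depth (both in µm), with cells holding 1, 2 or 3, and 4 or more UMIs of the gene in darker shades. Opossum RPRM cells were densest near 600 µm, mouse Rprm and Hs3st4 cells below 600 µm, and mouse cells with 4 or more Ccn2 UMIs at the lower edge.

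Ccn2 marked the lower border of mouse V1. It was at 0.467 or lower in each of the upper 9 bins and at 2.09 (1.85 to 2.35) in the deepest one, which held 45.9% of its 601 UMIs and 10.6% of all UMIs. The regions were at 1.55, 1.90, 2.68 and 2.64 there, and between 0.289 and 0.717 in the bin above. Values of the 2 bins did not overlap. Deep V1 was 3.81-fold higher than shallow V1 (3.11 to 4.71).

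L6b cells had the highest level, 6.81 (4.41 to 10.1), from 25 UMIs in 12 of 26 cells, 14.7 times the other labeled cells. L5NP followed at 1.37 (0.684 to 2.45), oligodendrocytes at 1.11 (0.894 to 1.36) and L6CT at 0.776 (0.658 to 0.908). L6b cells of the deepest bin were at 14.1 (8.95 to 21.2), from 23 UMIs. Other labels held most UMIs of that bin: labeled cells without L6b were at 1.92 (1.68 to 2.19). L6CT cells there held 94 UMIs (1.53), oligodendrocytes 73 (2.45) and cells with no subclass 30 (2.07).

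The summed level of 4 oligodendrocyte markers (Mbp, Mobp, Mog and Mal) rose beside it, from 19.0 in the ninth bin of the mouse to 31.7 in the deepest, with regions between 27.4 and 43.4. In the opossum the summed level of the 3 of these genes that are listed rose from 39.9 to 60.8. That sum was mostly Mbp, with 21551 UMIs in V1 against 532 of Mog and 164 of Mal. Between the same bins of the mouse, the astrocyte marker sum rose from 3.03 to 3.26. The vascular and Lamp5 interneuron marker sums fell, from 1.03 to 0.923 and from 3.82 to 3.27. The last sum included Gad1 and Gad2, with 2711 and 917 UMIs in V1, beside 2350 of Lamp5. Sst cells carried Gad1 and Gad2 as well, at 4.74 and 1.61, so that sum does not follow Lamp5 cells alone. The part of oligodendrocytes in the Ccn2 result was not tested. Mouse oligodendrocytes at relative depths of 0.6 to 0.8 were at 0.399 for Ccn2, below the 2.45 of those in the deepest bin.

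The V1 regions ended near the maximum of Ccn2. In strips of 50 µm that continued each region downward, the mouse level was 0.532 (0.401 to 0.692) from 100 to 50 µm above the lower edge, 2.72 (2.39 to 3.08) in the last strip above it, 3.72 (3.26 to 4.23) in the first below and 1.44 (1.14 to 1.79) in the next. Regions 1, 2 and 4 were highest just below the edge, at 4.78, 4.11 and 3.39, and region 3 just above it, at 3.51. From 50 to 100 µm below, region 1 held 56 of the 78 UMIs, at 2.68, and regions 2, 3 and 4 were at 0.427, 0.362 and 1.08. Region 1 was still at 3.20 from 100 to 150 µm below. Cplx3 followed the same course, with 0.203, 0.721, 0.774 and 0.369 in the same strips. Its regions 1 and 2 were highest just below the edge and regions 3 and 4 just above it. Rprm and Vxn were already falling in the first strip below the edge, Rprm from 5.50 to 3.79 and Vxn from 8.40 to 6.17, and Hs3st4 fell from 5.14 to 3.88.

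**Figure D4:**
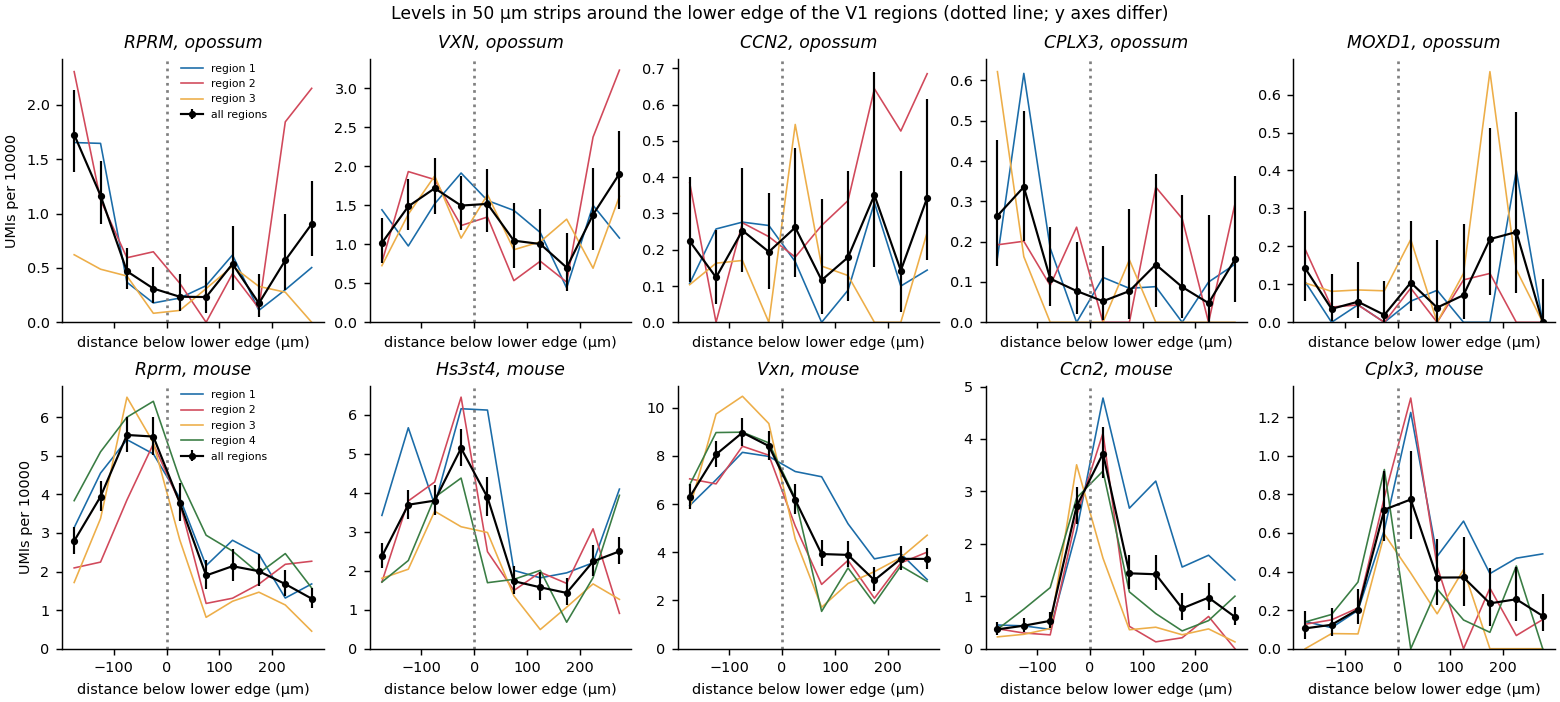
Levels in UMIs per 10000 in strips of 50 µm from 200 µm above to 300 µm below the lower edge of the V1 regions (dotted line), with all regions pooled in black (95% Poisson intervals). Mouse Ccn2 and Cplx3 peaked within 50 µm of the edge, at 3.72 and 0.774 pooled, and opossum CCN2 was at 0.194 and 0.261 there.

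Opossum CCN2 showed no layer in the bins of V1 or in the strips near its lower edge. Its 145 UMIs gave levels between 0.150 and 0.263 in the 10 bins, and the deepest bin was at 0.201 (0.115 to 0.326). The regions were at 0.257, 0.238 and 0 there, the last from 0 UMIs. Deep V1 was at 0.936 times shallow V1 (0.667 to 1.32). From 100 µm above to 100 µm below the lower edge the strips held 14, 10, 10 and 3 UMIs, at 0.253, 0.194, 0.261 and 0.116, and no interval of these strips reached above 0.481.

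The highest opossum CCN2 level was in cells labeled Sst, interneurons that make somatostatin, at 0.851 (0.520 to 1.31) from 20 UMIs in 13 of 171 cells. Regions 1 and 2 were at 0.901 and 1.31, and region 3, with 1 UMI, was at 0.161. All labeled cells but Sst were at 0.182. Within the mouse, Sst cells were at 0.659 (0.377 to 1.07), against 0.480 over V1, 0.776 in L6CT and 1.11 in oligodendrocytes.

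Cplx3 was sparse in both species. In the mouse its 223 UMIs gave 0.552 (0.433 to 0.695) in the deepest bin and at most 0.220 in any other. The regions were at 0.447, 0.700, 0.446 and 0.693 there. L6b cells were at 1.64 (0.60 to 3.56) and Lamp5 cells, interneurons whose neurogliaform members express Cplx3, at 1.44 (0.529 to 3.14), each from 6 UMIs. Without the cell with most UMIs these fell to 0.579 and 0.732, so their order was not settled. Lamp5 cells lay at a median depth of 95 µm, apart from the deep band. Oligodendrocytes were next at 0.470 (0.334 to 0.643).

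Mouse L6CT was at 0.240 for Cplx3, 2.16 times the other glutamatergic cells (1.45 to 3.18). That ratio was 1.41, 1.70, 1.75 and 4.70 in the 4 regions and 1.55 without region 4. It thus passed the 2-fold limit through region 4.

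Opossum CPLX3 had 92 UMIs. Its highest bins were at 541 to 619 µm (0.252, 0.152 to 0.393) and 619 to 696 µm (0.247, 0.151 to 0.381), and the deepest bin was back at 0.0879 (0.0353 to 0.181). Deep V1 was 2.34-fold higher (1.45 to 3.90), with ratios of 2.24, 2.33 and 2.56 in the regions. After thinning to 300 UMIs per cell the ratio was 0.701, the other way, for a reason that was not tested. L6CT was among the lowest subclasses at 0.0601 (0.0221 to 0.131), from 6 UMIs that were all in region 2. The highest labels did not differ beyond their intervals, with L5NP at 0.439 (0.0905 to 1.28) from 3 UMIs, IT_C at 0.243 (0.117 to 0.447) and Pvalb at 0.234 (0.125 to 0.40).

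Moxd1 was not higher in deep V1 in either species. In the mouse it had 69 UMIs, and deep V1 was 0.845 times shallow V1 (0.511 to 1.39), with ratios of 1.11, 0.196, 1.33 and 0.886 in the regions. The 10 bins were between 0.0107 and 0.132, with the highest at 310 to 387 µm, where region 2 was at 0.361 and the others at 0.148 or lower. At the bottom it rose again, from 0.0134 (2 UMIs) in the ninth bin to 0.0984 (0.0524 to 0.168, 13 UMIs) in the deepest, and the deepest bin was the higher in all 4 regions. Around the lower edge the strips were at 0.0193 (0.00234 to 0.0699) from 100 to 50 µm above it, 0.122 in the last strip above, 0.113 in the first below and 0.221 (0.114 to 0.386) in the next, from 2, 11, 7 and 12 UMIs. Of the 12 UMIs, 10 were in region 1. L6b cells were at 0.545 (0.0660 to 1.97) from 2 UMIs, which sets no order.

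In the opossum, MOXD1 lay in the middle of V1. At 309 to 387 µm it was at 0.538 (0.379 to 0.742), with 0.558, 0.517 and 0.549 in the 3 regions, and below 619 µm it had 5 of its 109 UMIs. Deep V1 was 0.470, 0.444 and 0.420 times shallow V1 in the regions. Cells labeled Sst were at 1.66 (1.18 to 2.27) from 39 UMIs in 24 of 171 cells, 16.2 times the other labeled cells (10.6 to 24.4). All regions had it, at 1.69, 1.31 and 2.09. Vip cells were next at 0.608 (0.125 to 1.78) from 3 UMIs, an interval that overlaps that of Sst, and L6CT was at 0.0702 (0.0282 to 0.145). At relative depths of 0.4 to 0.5, Sst cells were at 1.96 (1.16 to 3.10) and all other labels together at 0.322 (0.191 to 0.509). At least 1 UMI was found in 14.0% of Sst cells and 1.06% of oligodendrocytes, and in 3.61% and 0.549% after thinning. Mouse Sst cells held 1 Moxd1 UMI in 169 cells, at 0.0412 (0.00104 to 0.230).

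**Figure D5:**
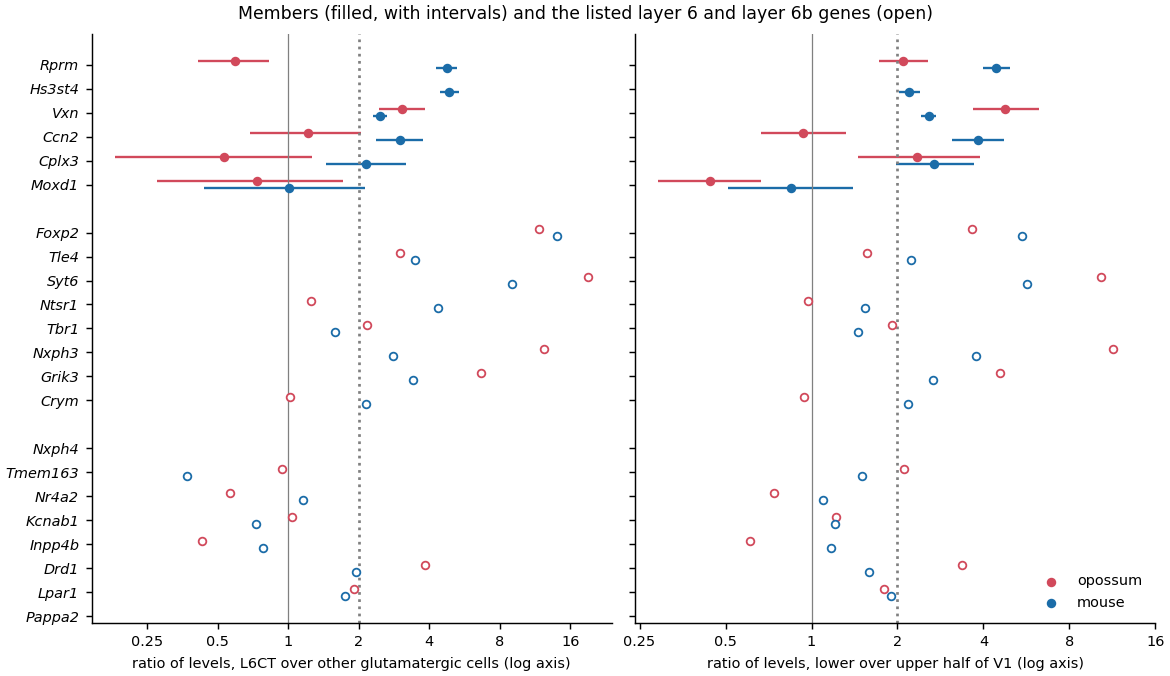
Ratio of levels in L6CT over other glutamatergic cells (left) and in deep over shallow V1 (right), on log axes, for the 6 genes with 95% intervals (filled) and for the listed layer 6 and layer 6b genes (open). The dotted line marks 2-fold. Opossum RPRM lies below 1 on the left at 0.589 and mouse Rprm above 4 at 4.75.

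Other genes of the same layers were read by the same 2 ratios. Of 8 genes listed for L6CT (Foxp2, Tle4, Syt6, Ntsr1, Tbr1, Nxph3, Grik3 and Crym), 6 in the opossum and 7 in the mouse were at 2-fold or more in L6CT, with medians of 4.82 and 3.44 against 0.999 and 0.990 over all genes tested. In deep V1, 4 and 6 of them passed. Over all genes tested, 3.35% in the opossum and 1.55% in the mouse were at 2-fold or more in L6CT. In deep V1 these shares were 1.66% and 1.2%. Foxp2, Tle4 and Syt6 are the 3 L6CT markers given above, so they add nothing new here. Since labels were given by expression, the L6CT count describes the labeled cells and is no test of them. Of 8 genes listed for layer 6b and subplate (Nxph4, Tmem163, Nr4a2, Kcnab1, Inpp4b, Drd1, Lpar1 and Pappa2), 6 had at least 50 UMIs in each species. Among these, 1 in the opossum and 0 in the mouse were at 2-fold or more in L6CT, and 2 (Tmem163 and Drd1) and 0 in deep V1. Their medians in deep over shallow V1 were 1.5 and 1.36, against 1.018 and 0.9994 over all genes tested. The mouse list thus had no gene past 2-fold in deep V1, beside the 3.81-fold of Ccn2 and the 2.69-fold of Cplx3 (1.98 to 3.69). Within the 26 mouse L6b cells, which held 36697 UMIs in all, 3 of the 8 were above their V1 level. The other 5 had too few UMIs there to be placed below it. Inpp4b, Kcnab1 and Tmem163 were at 13.6, 4.36 and 1.36, against 0.224, 0.959 and 0.143 over V1. These 3 levels are given without intervals, and whether single cells held most of their UMIs was not tested. Nr4a2 was at 0.273 against 0.926, and Lpar1, Drd1, Nxph4 and Pappa2 were at 0 UMIs, against 0.401, 0.0870, 0.00958 and 0.00878.

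The genes most alike in depth course were found by Pearson's r over 10 depth bins in every region, a description across 30 points in the opossum and 40 in the mouse that share sections and depths. Opossum RPRM was closest to POU3F1 (0.82), HAPLN4 (0.78) and a gene without symbol. Mouse Rprm was closest to Gadd45a (0.93), Vxn (0.92) and Foxp2 (0.91). Hs3st4 was closest to Garnl3 (0.88) and Foxp2 (0.86), mouse Vxn to Igfbp4 (0.95) and Gadd45a (0.94), and opossum VXN to GRIK3 (0.95) and NPNT (0.93). Mouse Ccn2 was closest to Mobp (0.91) and Mbp (0.90), both genes of myelin, and to Nxph3 (0.87). Cplx3 was closest to Ccn2 (0.84).

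The genes were not confined to V1. In mouse cells outside the V1 regions, Rprm was at 1.61 against 1.98 inside, Hs3st4 at 1.92 against 2.05, Vxn at 3.49 against 4.58, and Ccn2 at 0.495 against 0.480. In the opossum, RPRM and VXN were at 0.381 and 0.50 outside against 0.75 and 0.663 inside. CCN2 and MOXD1 ran the other way, at 0.305 and 0.256 outside against 0.209 and 0.157 inside. From 250 to 300 µm below opossum region 2, RPRM and VXN were at 2.15 and 3.23, from 22 and 33 UMIs. Regions 1 and 3 were at 0.504 and 0 for RPRM, and at 1.08 and 1.61 for VXN.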

How the data were processed

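The authors generated the files with the Stereo-seq Analysis Workflow, aligned opossum reads to a custom genome based on ASM229v1 with extended gene ends and mouse reads to GRCm39, and deposited UMI counts per gene and segmented cell without normalization, with positions (2 units per µm), V1 regions and labels, per the labels and methods. Their filter kept cells with at least 50 genes and 100 UMIs. From these counts, UMIs of a gene were summed over cells and divided by all UMIs of those cells (Python 3.11.15, numpy 2.4.6, scipy 1.17.1). Intervals on ratios are exact binomial ones on the split of the 2 counts. Depth ran along a side of the smallest rectangle around each region and was scaled to the tallest (773 µm in the opossum, 774 µm in the mouse). Subclasses had at least 25 cells. Other glutamatergic cells were 2138 in 5 opossum subclasses and 4315 in 7 mouse subclasses. Mouse coordinates and names came from GENCODE M39. The computation was tested on simulated data. The genes, lists and comparisons were chosen with earlier results of these data known. Named genes were the 6 chosen genes, genes of the 2 lists and cell type markers where a result turned on them, and the 3 genes most alike for each gene with at least 200 UMIs. Alternatives were other filters, thinning, other comparison cells and each region left out. One gene of the oligodendrocyte marker list is not reported here and was left out of its sum.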

Additional observations from a re-analysis of the deposited data

Results flagged for a closer look

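The contrast of L6CT with the other glutamatergic cells ran in opposite directions in the 2 species for 1 gene. Opossum RPRM was 0.589 times as high in L6CT (0.412 to 0.825) and mouse Rprm 4.75 times as high (4.27 to 5.28). L6CT was the lower side in all 3 opossum regions, with overlapping intervals in each, and the higher side in all 4 mouse regions. The opossum ratio leaned on L5PT cells, which held 75 of the 227 UMIs of the other glutamatergic cells. IT_A was at 0.430 (0.349 to 0.522), near the 0.411 of L6CT, and IT_B was at 0.236. The difference between species was not tested, since each has 1 animal. Labels come from a separate atlas in each species, and their part in the difference was not tested. The mouse comparison cells included L6IT and L6b, which the opossum ones lacked.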

How the results depend on the processing

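Of 46 recomputed counts of genes at 2-fold or more, 40 stayed within 1.5 times the count given and 6 did not. For L6CT in the opossum the count was 1, and became 0 after thinning to 300 UMIs, 0 among glutamatergic cells of deep V1 alone, and 2 with labels of the first of 3 rounds only (VXN and CCN2). For L6CT in the mouse it was 5, and became 3 against all other labeled cells and 2 (Rprm and Hs3st4) within deep V1. For deep over shallow V1 in the opossum it was 3, and became 1 (VXN) after thinning. Leaving out 1 region at a time, the L6CT counts were 1 to 1 in the opossum and 4 to 5 in the mouse, and the deep V1 counts were 2 to 3 and 5 to 5. Without region 4 the mouse lost Cplx3 (1.55), and without region 1 or region 2 the opossum lost RPRM (1.85 and 1.74), which also fell under 2-fold after thinning (1.65), with the mean over cells (1.69) and among glutamatergic cells alone (1.94). One ratio of a called gene turned: opossum CPLX3 in deep over shallow V1 was 0.701 after thinning, in place of 2.34. The cause was not tested. Of the recomputed ratios, 97 of 127 in L6CT and 108 of 127 in deep V1 stayed within their counting interval, and 98 of 116 mean depths stayed within the SD over regions. Counting each cell once, chosen after seeing the data, left every count within 1.5 times.

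Thinning keeps few UMIs of genes such as CPLX3 and MOXD1, so depth limits what can be said of them. No paired analysis was possible because the 2 samples are 1 animal of each species and share no replicates.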
